A study of Mus musculus with 5 samples.

Results

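The serpins measured here were all genes whose single symbol in the platform annotation starts with Serpin. They numbered 30 of 12393 genes with a single symbol, and 39 probe sets carried them. Where several probe sets stood for a gene, the brightest by mean log2 signal was used. By clade there were 8 genes of clade A, 14 of clade B, 1 each of clades C, D, G and H, and 2 each of clades F and I. Another 3 probe sets list several serpin genes and were kept apart.

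Serpins are a family of proteins with a shared fold, most of which inhibit serine proteases by acting as a bait: the protease cleaves an exposed loop, the inhibitor changes shape, and both stay locked together. The liver secretes most of the serpins of blood plasma, where they restrain neutrophil elastase, clotting enzymes, plasmin and complement. Some members inhibit nothing and instead carry hormones or fold collagen. Clade B members lack a classical secretion signal and mostly protect cells from proteases inside them.

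Liver RNA came from C57B/L mice and was measured on 5 oligonucleotide arrays, 1 array of pooled livers per group. The groups were standard chow for 1 week, atherogenic diet for 1 week, standard chow for 10 weeks, atherogenic diet for 10 weeks, and atherogenic diet for 10 weeks with atorvastatin in the last 3 weeks. The atherogenic diet promotes high blood cholesterol and arterial lesions, and atorvastatin inhibits cholesterol synthesis. All mice were 8 weeks old with 2 weeks of acclimation before feeding, so the 1-week and 10-week groups also differ in age at sampling. No source used here states how many livers formed a pool, the sex of the mice or what the diet contained. Labels of the 1-week diet sample conflict: the source name says chow, whereas the other labels say atherogenic, and the title decided its group.

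With 1 array per group there was no spread between replicates, no test was possible, and all differences describe these pools. Signals are in arbitrary units, and a floor of 138.9 marks the level below which no order was read. A ratio of at least 2-fold was counted as past the limit. Between the chow arrays 95% of genes lay within 1.87-fold in the dimmest quartile of signal, 2.27-fold in the next, 1.90-fold in the third and 1.83-fold in the brightest. In bulk tissue, fewer cells of a type and less RNA per cell cannot be told apart.

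Hepatocyte markers were bright on every array, with albumin gene Alb between 28032 and 69204, while fat markers Adipoq and Lep lay under the floor on all 5. The summed signal of 9 hepatocyte markers ran from 188467 to 356750, highest on the 10-week chow array. That of 9 macrophage and Kupffer cell markers ran from 8487, on the same array, to 22009 with atorvastatin. Spike-in controls on the 10-week chow array were 5.76-fold brighter than on 1-week chow, against 1.05-fold to 1.87-fold on the others, and the atorvastatin array had an 18S ribosomal RNA signal of 13944 against 437 to 2185. The part of these differences in the serpin values was not tested.

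Of the 30 serpins 14 were above the floor on all arrays, 7 on 1 to 4 arrays and 9 on none. Over the whole series 6929 of 12393 genes were above it on all arrays. Those above it everywhere included 6 of 8 clade A genes and all of clades C, D, F, G and H, but 2 of 14 clade B genes. The 9 under it throughout did not exceed a signal of 127.3 on any array. They were Serpina3a, the protein C inhibitor gene Serpina5, Serpinb1b, the plasminogen activator inhibitor gene Serpinb2, the maspin gene Serpinb5, Serpinb7, Serpinb9c, Serpinb9g and Serpini1, which encodes the brain serpin neuroserpin and had 90.9 and 57.6 at 1 week, then 52.4, 74.0 and 68.0. Of the 14 above the floor on all arrays, 8 had their highest signal on the 10-week diet array (57.1%, against 27.0% of 6929 genes). On the 1-week chow array 0 did, against 15.6% of those genes. Among the 8, Serpinf1 (11155 against 10994 with atorvastatin), Serpinf2 (10484 against 10240 on 10-week chow) and Serpinb9 (308.4 against 305.9 on the 1-week diet) led narrowly.

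**Figure D1:**
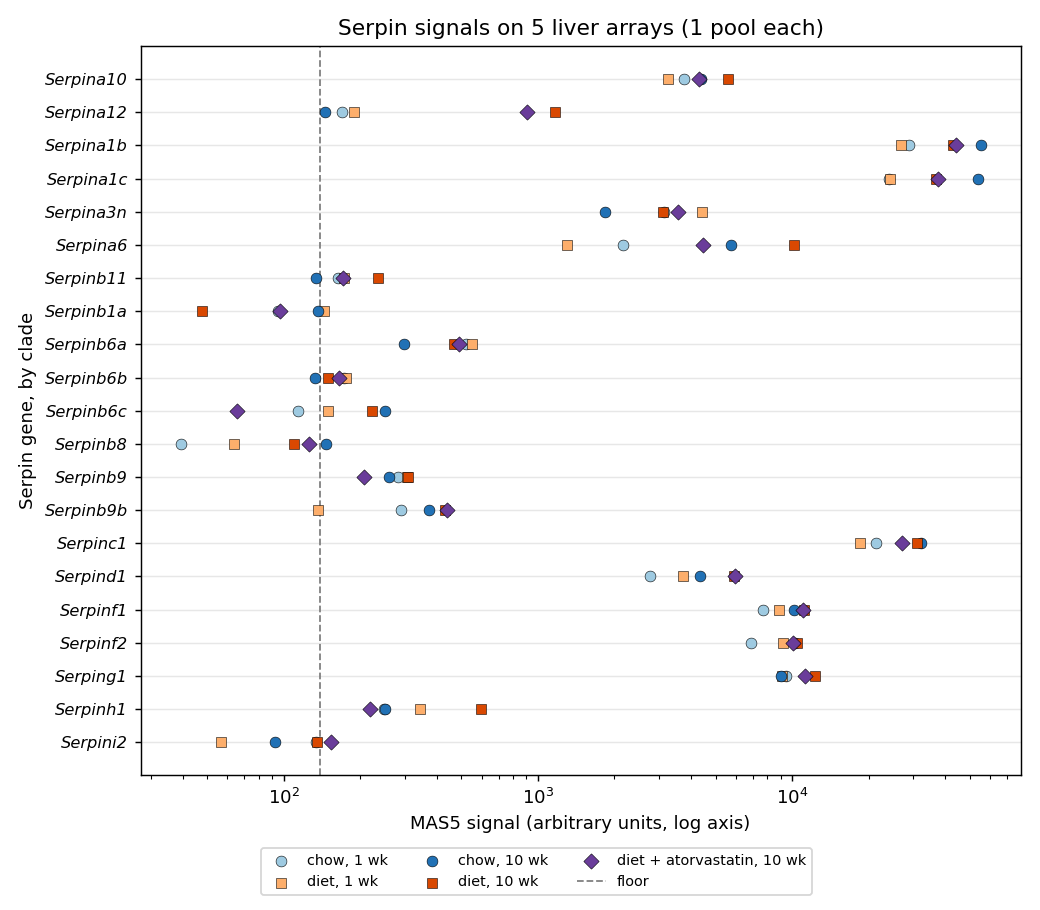
MAS5 signal (arbitrary units, log axis) of the 21 serpin genes above the floor on at least 1 array, by clade; each point is 1 array and the dashed line is the floor of 138.9. Serpina12 and Serpina6 show the widest spreads among the genes above the floor on all arrays, and most clade B genes lie near the floor.

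Upstream sequence is shown for 3 clade A genes that lie in 1 serpin cluster on chromosome 12: the alpha-1 antitrypsin paralogs Serpina1b and Serpina1c, which had similar signals across the arrays, and Serpina12, which did not follow them. Each is the 250 bases before the transcription start, read 5′ to 3′ from RefSeq on GRCm38.p6, minus strand. Serpina1b covers chr12:103738190-103738439, Serpina1c chr12:103904951-103905200 and Serpina12 chr12:104044444-104044693. Capitals mark a match to GTTAAT, a core element of sites for the hepatocyte factor HNF1.
Serpina1b: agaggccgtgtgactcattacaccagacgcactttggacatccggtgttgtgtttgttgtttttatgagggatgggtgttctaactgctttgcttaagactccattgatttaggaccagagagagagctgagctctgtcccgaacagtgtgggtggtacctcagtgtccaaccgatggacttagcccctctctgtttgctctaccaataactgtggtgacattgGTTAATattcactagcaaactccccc
Serpina1c: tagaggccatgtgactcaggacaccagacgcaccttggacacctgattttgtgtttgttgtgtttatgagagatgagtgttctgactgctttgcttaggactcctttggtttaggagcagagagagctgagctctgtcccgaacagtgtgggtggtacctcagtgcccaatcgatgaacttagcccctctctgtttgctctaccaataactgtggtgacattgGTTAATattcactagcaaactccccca
Serpina12: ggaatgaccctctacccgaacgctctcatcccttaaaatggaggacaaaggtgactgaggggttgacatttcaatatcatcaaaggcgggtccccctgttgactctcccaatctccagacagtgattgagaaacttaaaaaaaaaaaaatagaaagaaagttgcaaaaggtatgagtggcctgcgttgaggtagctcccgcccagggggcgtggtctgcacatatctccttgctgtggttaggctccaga

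The Serpina1b and Serpina1c windows were identical at 90.9% of 252 aligned columns, and each held GTTAAT shortly before the start site. Serpina12 was identical to Serpina1b at 43.2% of columns and to Serpina1c at 43.3%, close to the 45.8% between Serpina12 and the unrelated window of Serpinh1. Searched on both strands, GTTAAT occurs in 6.43% of all 32851 windows of this length and in 4 of 29 windows of the 26 serpins that have one. The other serpins with a match were Serpinb8 and Serpini2, both dim here. The windows of the brighter genes Serpinc1, Serpina3n, Serpind1 and Serpinf2 held no match, so the motif does not separate bright from dim serpins. None of TATAAA (12.4% of windows), CACGTG (6.02%), GAANNTTC (6.69%) or TTCNNNGAA (7.02%) occurs in the 3 windows shown, and no matches of different motifs overlap in them. A match describes letters in a window and not a bound site.

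Serpina12 encodes vaspin, a secreted serpin first described in visceral fat that inhibits a kallikrein. Its signal was 170.0 on chow and 188.8 on the diet at 1 week, 145.5 on chow at 10 weeks, 1170 on the diet at 10 weeks and 902.2 with atorvastatin. The gene lay just above the floor on 3 arrays and far above it on both arrays with 10 weeks of diet. On the diet at 10 weeks it was 8.04-fold higher than on chow, the 4th largest ratio of 9232 measured genes. The size rests on a chow signal just above the floor: it was 4.15-fold under a higher floor, at the 60th percentile, and 5.17-fold with a pseudocount of 100.

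With atorvastatin Serpina12 remained 6.20-fold above 10-week chow, at a log2 ratio to the diet alone of -0.38. That fold was 3.20 with the higher floor and 4.08 with the pseudocount. Measured from 1-week chow instead, its 10-week diet ratio was 2.78 on the log2 scale, and from the 1-week diet 2.63. Its other probe set lay under the floor on every array, between 5.5 and 45.7, so no order was read from it. Averaging both probe sets, the dim one held at the floor throughout, gave 2.84-fold on the diet at 10 weeks and 2.49-fold with atorvastatin against chow. The fat markers Adipoq and Lep stayed between 9.3 and 59.9 on the 5 arrays, under the floor on each.

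Serpina6 encodes corticosteroid-binding globulin, a carrier of glucocorticoids in plasma that inhibits no protease. Its signal was 2167 on chow and 1306 on the diet at 1 week, and 5736 on chow, 10199 on the diet and 4446 with atorvastatin at 10 weeks. The lowest and the highest signal, a 7.81-fold span, both came from the diet without drug. All 10-week arrays lay above both 1-week arrays.

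The diet ratio of Serpina6 was -0.73 on the log2 scale at 1 week and 0.83 at 10 weeks, neither past 2-fold. With atorvastatin the gene was 2.29-fold lower than on the diet alone, the 94th lowest of 9293 ratios, and at -0.37 against 10-week chow. Measured from 1-week chow, it was 4.71-fold higher on the 10-week diet and 2.05-fold higher with atorvastatin, so both the size on the diet and the direction with the drug depend on which chow array is used. On chow it was 2.65-fold higher at 10 weeks than at 1 week. The glucocorticoid receptor gene Nr3c1 was at 734.2 and 737.3 at 1 week, and at 629.9 on chow, 922.1 on the diet and 501.0 with atorvastatin at 10 weeks. Its atorvastatin ratio of -0.88 did not reach 2-fold.

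**Figure D2:**
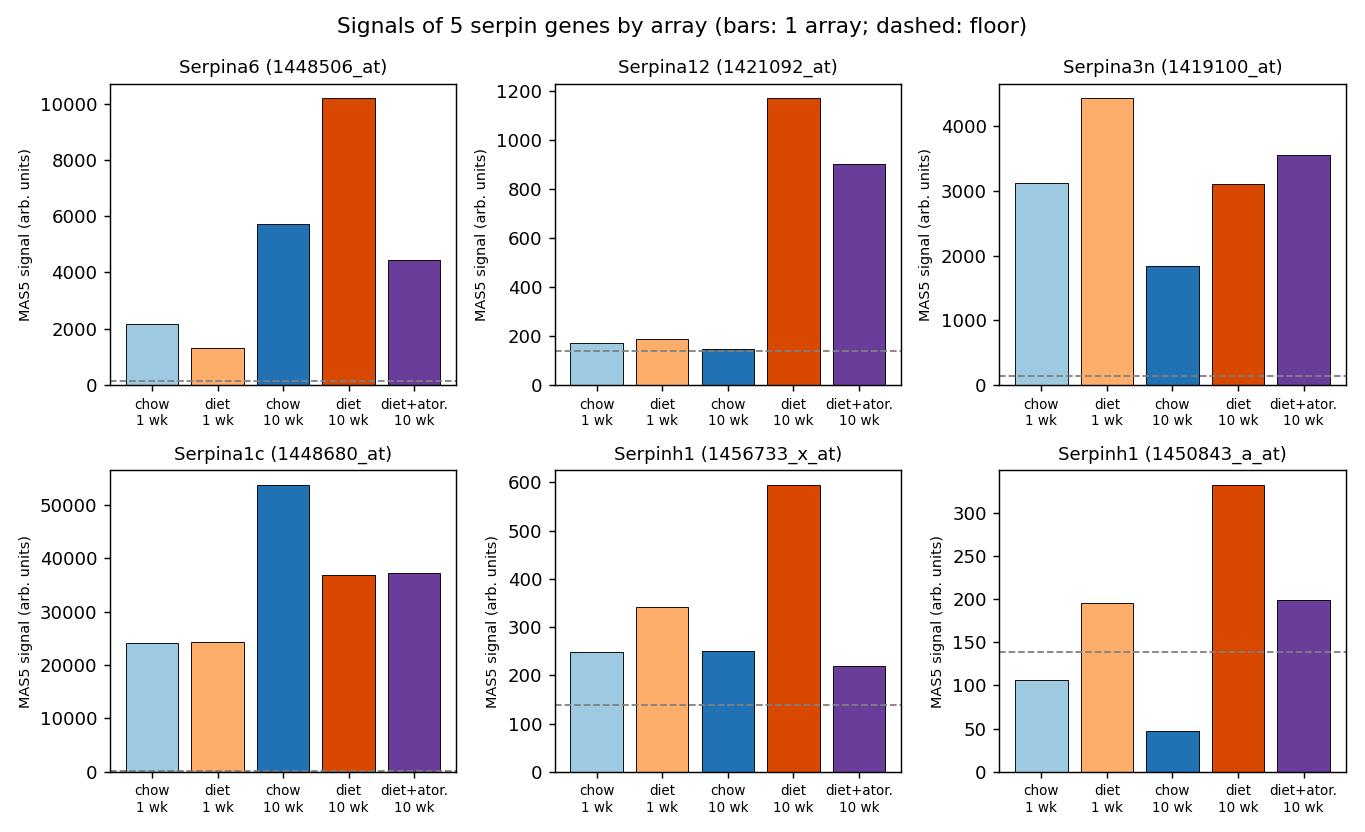
MAS5 signal (arbitrary units, axes from 0) of 5 serpin genes on each array, with both probe sets of Serpinh1; each bar is 1 array of pooled livers and the dashed line is the floor of 138.9. Serpina6 is highest on the 10-week diet array and lowest on the 1-week diet array, and Serpina12 stands high on both arrays with 10 weeks of diet.

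Serpina1b and Serpina1c encode alpha-1 antitrypsins, which inhibit serine proteases. Serpina1b had signals of 28949 on chow and 26746 on the diet at 1 week, then 55080 on chow, 42778 on the diet and 43927 with atorvastatin at 10 weeks. Serpina1c had 24089 and 24356 at 1 week, then 53820, 36935 and 37342 in the same order. Both were highest on the 10-week chow array and hardly differed between the diet arrays with and without drug.

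At 10 weeks of chow against 1 week Serpina1c was 2.23-fold higher and Serpina1b had a log2 ratio of 0.93, while albumin gene Alb had 1.07 on the same arrays. These values depend on scaling: with quantile normalization they were 0.32 for Serpina1c and 0.04 for Serpina1b, and with cyclic loess 0.83 and 0.58. The diet ratios at 10 weeks were -0.36 for Serpina1b and -0.54 for Serpina1c, which became 0.06 and -0.08 with quantile normalization. The genes are close paralogs and probe sets can take up transcripts of several. A probe set listed for both Serpina1d and Serpina1a ran from 13790 to 21748, highest on the same array, while one listed for Serpina1e, Serpina1c and Serpina1b ran from 2007 to 3225 and was highest with atorvastatin.

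Serpina3n, an antichymotrypsin-type serpin of the acute phase that inhibits granzyme B, moved in the other direction over time. Its signal was 3119 on chow and 4436 on the diet at 1 week, then 1841 on chow, 3109 on the diet and 3560 with atorvastatin. At each time the diet array was above the chow array, by log2 ratios of 0.51 and 0.76, neither past 2-fold. Measured from 1-week chow its 10-week diet ratio was 0.00, so its size rests on the low 10-week chow signal.

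The atorvastatin array held the acute phase genes Saa1, Saa2, Lcn2, Saa3 and Orm2 more than 2-fold above the diet alone, with log2 ratios from 4.40 for Saa1 down to 1.33 for Orm2. They were 5 of 22 listed acute phase genes measured, where 2.15% of all genes were that much higher. On that array Serpina3n had a log2 ratio to the diet of 0.20, and Serpina1b and Serpina1c 0.04 and 0.02. The list median was 0.23, beside -0.02 over all genes. Measured from 10-week chow, Serpina3n with atorvastatin was at 0.95, inside 2-fold, where the list median was -0.02. From 1-week chow it was at 0.19. Serpina10, the protein Z-dependent inhibitor of factor Xa, had 3745 on chow and 3242 on the diet at 1 week, then 4389, 5595 and 4294, and passed 2-fold in none of the comparisons.

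Antithrombin, encoded by Serpinc1, inhibits thrombin and factor Xa. Its signal was 21453 on chow and 18434 on the diet at 1 week, then 32002 on chow, 31096 on the diet and 27114 with atorvastatin. The diet ratios were -0.22 at 1 week and -0.04 at 10 weeks. Heparin cofactor II, encoded by Serpind1, is another thrombin inhibitor. It had 2767 on chow and 3707 on the diet at 1 week, then 4343, 5917 and 5985, and both diet ratios were close, at 0.42 and 0.45. Measured from 1-week chow, the ratio of Serpind1 on the 10-week diet was 1.10 and that with atorvastatin 1.11, both past 2-fold.

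Serpinf2 encodes alpha-2 antiplasmin, the plasmin inhibitor, and had 6868 on chow and 9167 on the diet at 1 week, then 10240, 10484 and 10057. Serpinf1, which encodes pigment epithelium-derived factor, a secreted serpin that blocks vessel growth without inhibiting proteases, had 7700 and 8912, then 10126, 11155 and 10994. Both genes were lowest on 1-week chow and nearly level across the 10-week arrays. The other Serpinf1 probe set gave a ratio of -0.53 for the diet at 1 week against 0.21 from the one used. The C1 inhibitor gene Serping1, whose product restrains complement and plasma kallikrein, had 9436 and 9083 at 1 week, then 9003 on chow, 12297 on the diet and 11218 with atorvastatin, and stayed within 1.37-fold over all arrays.

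Serpinh1 encodes Hsp47, a chaperone of the endoplasmic reticulum that binds newly made collagen. Its signal was 248.6 on chow and 342.3 on the diet at 1 week, then 249.9 on chow, 595.1 on the diet and 218.3 with atorvastatin. The 10-week diet array alone stood out, 2.38-fold above chow, the 129th largest ratio, though with a pseudocount of 100 the fold was 1.99, inside the limit. The array with atorvastatin was 2.73-fold below it, the 46th lowest ratio.

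A 2nd Serpinh1 probe set gave 106.7 and 195.2 at 1 week, then 46.7, 332.5 and 198.7, again highest on the 10-week diet array. Its log2 ratios were 1.26 for the diet at 10 weeks, a bound because chow was under the floor, and -0.74 for atorvastatin against the diet, which is inside 2-fold. For atorvastatin against 10-week chow it gave 0.52, also a bound, whereas the probe set used gave -0.20, so the 2 differ in direction. Of 8 collagen genes listed as Hsp47 clients 7 were measured on the diet at 10 weeks, and 1 of them, Col3a1, was past 2-fold, where 3.59% of all genes were that much higher. Its signals were 341.0 on chow and 690.3 on the diet, a log2 ratio of 1.02. With atorvastatin Col3a1 was at 834.7, Col1a1 was more than 2-fold above the diet alone (log2 ratio 1.07) and Col5a2 was also higher (1.13, a bound like that of Col1a1), while Serpinh1 was lower. Col1a1 and Col5a2 were 2 of 8 measured, where 2.15% of all genes were that much higher. Summed signals of 8 stellate cell and fibroblast markers were 10701 on chow and 8855 on the diet at 1 week. At 10 weeks they were 6413 on chow, 8833 on the diet and 9579 with atorvastatin, so 1-week chow was highest and 10-week chow lowest. Dcn, the decorin gene, was the largest term of each sum, with 6845 and 5032 at 1 week, then 2838, 4744 and 5292. At 10 weeks Reln (1474, 1707 and 1430) and Acta2 (584.8, 707.0 and 562.7) were lower with atorvastatin than on the diet alone. The part of these cells in the Serpinh1 values was not tested. The collagen list had median ratios of 0.15 on the diet at 10 weeks and 0.38 with atorvastatin.

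Clade B genes were dim. Serpinb6a, an intracellular inhibitor of cathepsin G, had 520.1 and 551.1 at 1 week, then 296.9 on chow, 465.6 on the diet and 489.1 with atorvastatin, with a single low array. Serpinb9, an inhibitor of granzyme B that shields immune cells from their own granules, had 282.5 and 305.9, then 259.5, 308.4 and 206.7. Neither passed 2-fold in any comparison. On the 10-week chow array, where Serpinb6a had a log2 ratio of -0.81 to 1-week chow, 8 of 9 macrophage and Kupffer cell markers were also lower (median -0.69), 3 of them past 2-fold, where 1.95% of all genes were that much lower. Their part in it was not tested.

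Serpinb9b, a mouse paralog of Serpinb9, had 290.2 on chow and 136.7 on the diet at 1 week, then 373.7, 429.6 and 438.6. Only the 1-week diet signal was under the floor, making the gene at least 2.09-fold lower there than on chow and the 10-week diet at least 3.09-fold higher than the 1-week diet. The 1-week bound rests on a signal just under the floor: the log2 ratio was -0.95 with quantile normalization, -0.72 with a pseudocount and -0.04 under a higher floor, at the 60th percentile. Under that floor the 10-week diet was 1.52-fold above the 1-week diet, inside the limit. A probe set listed for 4 neighbouring Serpinb9 paralogs had 339.3 and 203.2 at 1 week, then 282.1, 335.3 and 438.9, also lowest on the 1-week diet array (log2 ratio -0.74).

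Serpinb1a, which inhibits neutrophil elastase inside cells, gave different answers from its probe sets. The one used lay at 94.7, 144.7, 136.1, 47.6 and 96.4 in the order 1-week chow, 1-week diet, 10-week chow, 10-week diet and atorvastatin, above the floor on 1 array. The other had 13.1, 31.1, 39.2, 278.8 and 150.7 and was at least 2.01-fold higher on the 10-week diet than on chow. On the 10-week diet array the probe set used was under the floor and the other had its highest signal, so no direction is given. Serpinb6c, Serpinb6b, Serpinb8, Serpinb11 and the clade I gene Serpini2 lay between 39.3 and 250.4, and none of them passed 2-fold in any comparison.

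**Figure D3:**
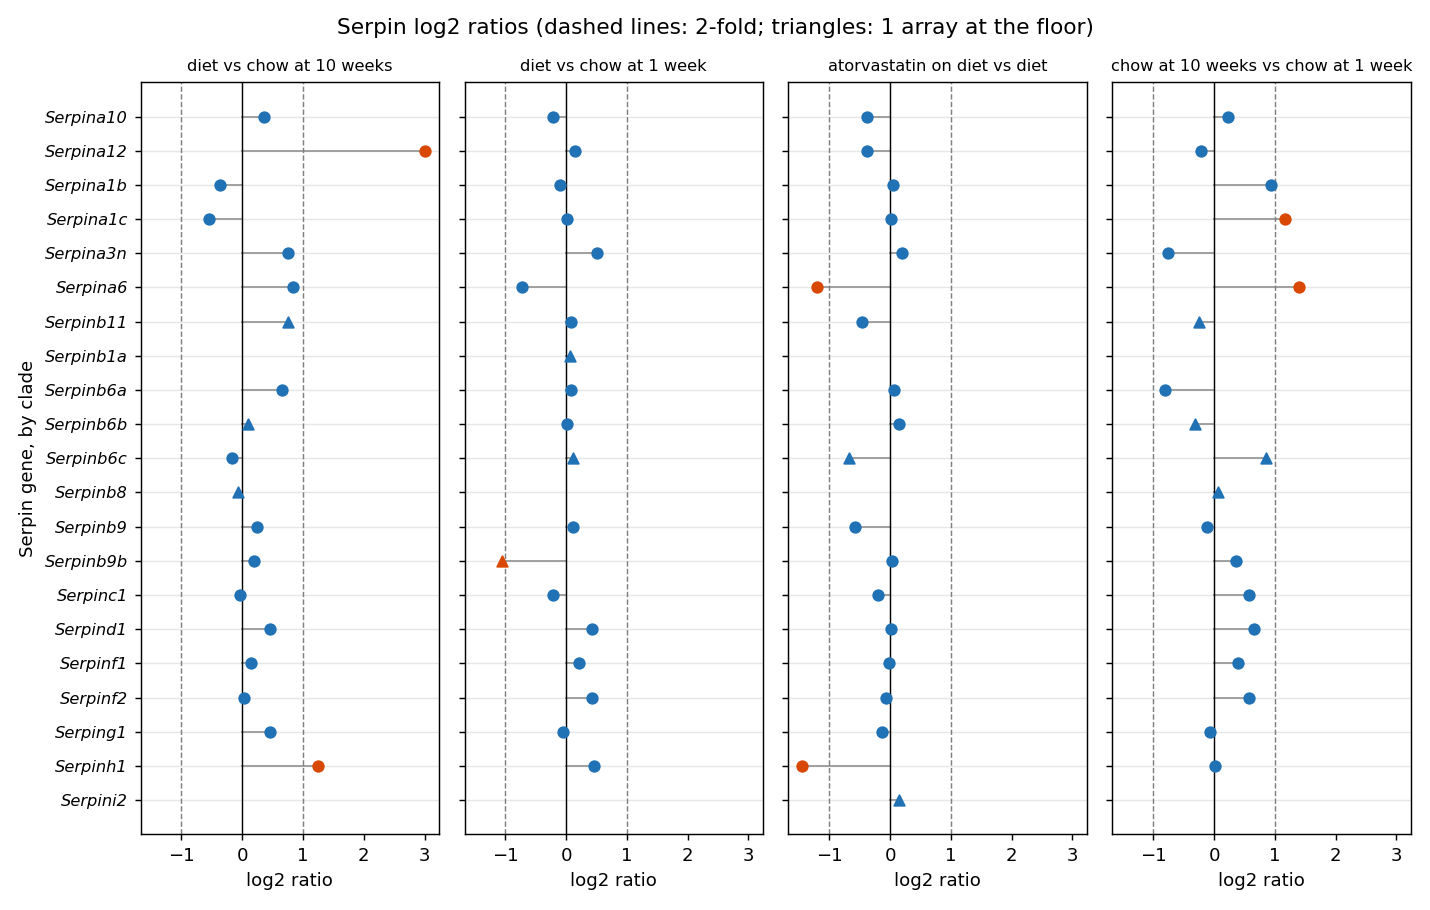
Log2 ratios of the 21 serpin genes above the floor on at least 1 array in 4 comparisons; red points are past 2-fold (dashed lines at -1 and 1), triangles have 1 array at the floor, and genes at the floor on both arrays are left blank. Serpina12 at 3.01 and Serpinh1 at 1.25 stand out on the diet at 10 weeks. With atorvastatin against the diet 11 of 19 ratios are negative, and Serpina6 and Serpinh1 are the ones past 2-fold.

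Over the family, 2 of 19 measured serpins were at least 2-fold higher and 0 lower on the diet at 10 weeks, where 6.65% of all genes passed in either direction (3.59% higher, 3.07% lower). The median log2 ratio was 0.25, beside 0.05 over all genes. Of 19 ratios 14 were positive, where 54.3% of all genes had a positive ratio. By clade the median was 0.55 for 6 clade A genes, from -0.54 for Serpina1c to 3.01 for Serpina12, and 0.20 for 7 clade B genes. In the same pair hepatocyte markers had a median of -0.49 (9 of 9 negative) and macrophage markers 0.92 (8 of 8 positive), and their part in the serpin values was not tested. With the 1-week chow array as reference 4 serpins were past 2-fold: Serpina12, Serpina6, Serpind1 and Serpinh1.

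After 1 week of diet 1 of 19 serpins, Serpinb9b, was past 2-fold, as lower, where 2.30% of all genes passed (1.06% higher, 1.24% lower). The median was 0.08 beside -0.03. With atorvastatin against the diet alone 2 of 19, Serpina6 and Serpinh1, were past 2-fold as lower and 0 as higher, where 4.27% of all genes passed (2.15% higher, 2.12% lower), and the median was -0.06 beside -0.02. With atorvastatin against 10-week chow 1 of 20, Serpina12, was past 2-fold, where 5.51% of all genes passed (3.05% higher, 2.46% lower), and the median was 0.05 beside 0.03. The comparisons at 10 weeks share arrays, so a deviation of one array enters several of them.

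Time on the feed was set out for each feed separately, since these pairs share no array. On chow 2 of 19 serpins, Serpina6 and Serpina1c, were higher by 2-fold or more at 10 weeks and 0 lower, where 4.39% of all genes passed (2.44% higher, 1.95% lower). On the diet, a comparison added after the values were seen, 3 of 19, Serpina6, Serpina12 and Serpinb9b, were higher and 0 lower, where 8.45% of all genes passed (4.78% higher, 3.68% lower). Medians were 0.23 on chow and 0.57 on the diet, beside 0.01 and 0.11 over all genes.

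Of 18 serpins measured in both pairs, 11 were higher at 10 weeks on both feeds and 3 lower on both (Serpina3n, Serpinb6a and Serpinb6b), while 4 differed in sign. Over all 8566 genes measured in both, 31.7% were higher on both and 23.5% lower on both. Among 10 serpins with a mean signal above 2000, 8 were higher on both feeds, against 32.9% of 997 other genes that bright. The 8 were Serpina1b, Serpina1c, Serpina6, Serpina10, Serpinc1, Serpind1, Serpinf1 and Serpinf2. With quantile normalization the ratio of Serpinc1 was -0.03 on chow and that of Serpina1b -0.03 on the diet, so their directions do not hold under that scaling. The 9 hepatocyte markers had medians of 0.68 on chow (8 positive, 1 negative) and 0.31 on the diet (7 positive, 2 negative) in the same pairs. Higher signals at 10 weeks were thus not particular to serpins, and the part of these markers in the serpin values was not tested.

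**Figure D4:**
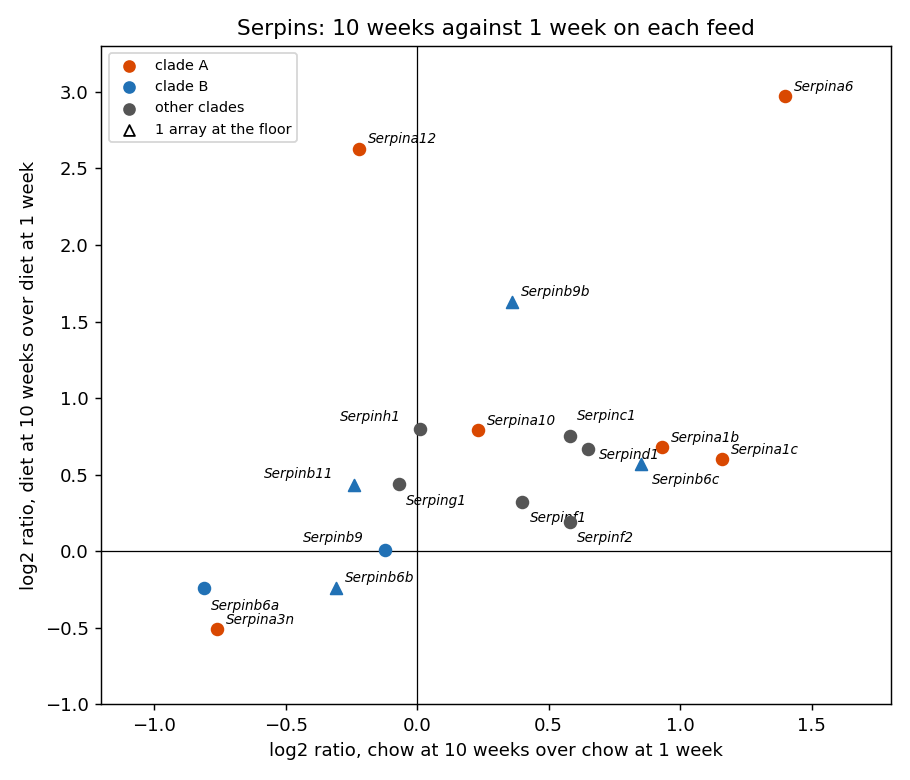
Log2 ratio of 10 weeks over 1 week on the diet (vertical axis) against that on chow (horizontal axis) for the 18 serpins measured in both; each point is 1 gene, coloured by clade, and triangles have 1 array at the floor. Serpina6 is at 1.40 and 2.97, while Serpina12 is at -0.22 on chow and 2.63 on the diet.

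Proteases that serpins restrain were listed beside them. Of 13 clotting and fibrinolysis proteases measured on the diet at 10 weeks, 1 was past 2-fold: plasma kallikrein gene Klkb1, with 2213 on chow and 3699 on the diet at 1 week, then 1474 on chow, 3024 on the diet and 2311 with atorvastatin (log2 ratio 1.04 at 10 weeks). That share is near the 6.65% over all genes, and the list median was 0.18. In the other planned comparisons none of those measured passed. At 10 against 1 week of diet Habp2, a hyaluronan-binding protease, was higher, with 481.7 and 1512.

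Thrombin gene F2 stayed between 15897 and 19504 and plasminogen gene Plg between 20799 and 30268. Of 4 complement proteases none passed 2-fold in any comparison. Among 11 leukocyte serine proteases the mast cell genes Cma1 (-1.04) and Tpsab1 (-1.05, a bound) were lower with atorvastatin than on the diet alone, 2 of 8 measured, where 2.12% of all genes were that much lower. Of these 8 ratios 5 were positive and 3 negative, with a median of 0.11. Another mast cell gene, Tpsb2, had a positive ratio (0.16, a bound). Tpsab1 was at 145.7 after 1 week of diet against 291.7 on chow, also past 2-fold, 1 of 6 measured, where 1.24% of all genes were that much lower. The neutrophil elastase gene Elane was dim, between 142.2 and 353.9. The other 2 lists gave no ratio past 2-fold in the planned comparisons: the 6 partners and receptors measured, with Plaur and Nr3c1 among them and F3 under the floor on all arrays, and angiotensinogen gene Agt, a serpin by fold under another symbol, at 7270 to 10392. Plaur, the urokinase receptor gene, was at 137.9 after 1 week and 332.6 after 10 weeks of diet (log2 ratio 1.26, a bound).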

How the data were processed

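The authors deposited 1 linear intensity for each probe set on each array. These signals came from MAS5, per the submitters' processing notes, and the deposited intensities share a 2% trimmed mean of 500.2. No source used here gives its settings or detection calls. Of 22690 probe sets, 64 were controls; of the other 22626, 20380 had a single symbol in the platform annotation, which can be old, 691 had more than 1 and 1555 had none. All 30 serpin identifiers matched the RefSeq gene table of GRCm38.p6, and 0 symbols changed.

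Arrays were rescaled to a common trimmed mean, signals floored at their 40th percentile, and log2 ratios taken. A gene was measured if above the floor on at least 1 array of a pair, and a ratio with 1 side at the floor is a bound. The steps were tested on simulated data. Values on all arrays are given for serpins past 2-fold in any comparison and for a preset list, as far as annotated here. Companion genes were named if past 2-fold. Others, including Alb, F2, Plg, Elane, Nr3c1, Dcn, Reln, Acta2, Adipoq and Lep, were chosen after their values were seen. The members and lists were chosen with earlier results of these data known. Alternatives covered scaling (none, quantile, or cyclic loess in limma 3.58.1), the floor, a pseudocount of 100, probe set choice, the fold limit and the chow reference. Computations used Python 3.11.15.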

Additional observations from a re-analysis of the deposited data

Results flagged for a closer look

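For Serpina6 the diet ratio ran in opposite directions at the 2 times, 0.83 on the log2 scale at 10 weeks and -0.73 at 1 week, a gap of 1.56. For Serpinb9b the ratios were 0.20 and -1.06, a gap of 1.26 in which the 1-week value is a bound. Each side is 1 array, and these differences between times were not tested.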

How the results depend on the processing

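No paired analysis was possible because each group is 1 array. A median was taken as moved when it left the spread of the chow pair (SD 0.48 over 9087 genes, scaled to list size), and a count when it changed by over 1.5 times. Of 787 single-gene values 8 fell back inside 2-fold, 41 others moved and 0 of those past 2-fold changed sign; of 64 counts 25 moved, and of 52 medians 7. In the order diet at 10 weeks, diet at 1 week, atorvastatin against diet, atorvastatin against chow, chow over time and diet over time, 2, 1, 2, 1, 2 and 3 serpins were past 2-fold. With the floor at the 20th percentile these were 4, 3, 4, 2, 5 and 5, with 26 or 27 serpins measured. The shares of all genes past 2-fold under that floor were 14.5%, 7.5%, 11.7%, 13.2%, 11.6% and 15.6% in the same order. At the 60th percentile the 2nd was 0. With a pseudocount the 1st, 2nd and 4th were 1, 0 and 2. A 1.5-fold limit gave 6 in the 1st, 2 in the 2nd, 4 in the 4th, 7 in the 5th and 9 in the 6th; a 3-fold limit gave 1 in the 1st and 0 in the 2nd, 3rd and 5th. Quantile normalization left 0 in the 2nd and 1 in the 5th, and cyclic loess 1 in the 5th. Without x and s probe sets the 3rd was 1, since the other Serpinh1 probe set gave -0.74. The 1-week chow reference gave 4 in the 1st (median 0.56) and 3 in the 4th (median 0.29), where 6.34% and 4.8% of all genes passed. Median ratios for chow over time were 0.04 with quantile normalization, 0.01 with the lower floor and 0.40 with the higher one, and for diet over time 0.25 with quantile normalization and 0.39 with cyclic loess. A changed floor alters which dim genes are measured; other causes were not tested. Serpinh1 on the diet at 10 weeks was 0.99 with a pseudocount, and Serpinb9b for diet over time was 0.61 with the higher floor. Serpina12 stayed past 2-fold on the diet at 10 weeks under every alternative run, lowest at 2.84-fold with all its probe sets averaged. Signals near the floor limit all clade B values.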
